A study of Mus musculus with 12 samples.

Results

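The cytosolic heat shock proteins described here are 10 genes, Hspa1a, Hspa1b, Hspa8, Hsph1, Dnajb1, Hsp90aa1, Hsp90ab1, Hspb1, Bag3 and Hspa4l, of 24296 gene symbols in the deposited table. They were selected on their own FPKM (fragments per kilobase of transcript, scaled to library size) in the 4 groups of livers, so their levels and differences are given as a description, without p-values. Counts of members past the call rule of the fit of all genes rest on the values that selected them, and nothing is read from these counts. All 10 passed the filter on low values, a mean of at least 0.5 FPKM over the 12 livers. RNA of whole livers of male C57/BL6N mice was sequenced, with 3 livers in each group. The control group carries the label WT and had no carbon tetrachloride (CCl4), a toxin that injures hepatocytes and leads to fibrosis. The model group had intraperitoneal CCl4 in olive oil over 8 weeks, with 2 injections of 5 mL/kg per week. Mice given silibinin (a flavonolignan of milk thistle) or the high dose of phloridzin (a glucoside of phloretin, at 40 mg/kg) had the same CCl4, with the drug from week 5. The age of the mice is not given in the sources used here. The labels number the samples of a group without stating that they are separate animals, so p-values measure the spread between these samples.

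Heat shock proteins are chaperones that bind unfolded proteins and help them to fold, to be transported or to be degraded. HSP70 proteins work in cycles with J-domain proteins, which deliver clients, and nucleotide exchange factors, which release them, while HSP90 proteins act on clients nearer to the folded state and small heat shock proteins hold unfolded proteins without ATP. Some of these genes are transcribed at all times, and others are induced by heat shock factor 1 (HSF1) when misfolded proteins accumulate, as in hepatocytes exposed to toxins.

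Library sizes recovered from the steps between FPKM values were 105.2, 108.4 and 109.5 M fragments in the control livers, 83.6, 101.4 and 100.1 M in the model livers, 106.7, 110.8 and 110.1 M in the silibinin livers and 102.1, 104.7 and 98.4 M in the phloridzin livers. Phloridzin 1 stood apart from its group, with a Pearson r across genes of 0.918 and 0.922 to the other livers of the group, which had 0.950 between them. The median log2 fold change of all 13158 genes tested was 0.34 for model against control, -0.15 for silibinin against model and -0.11 for phloridzin against model. The largest differences of the members are therefore also given relative to these medians. With FPKM scaled between livers by median ratios, the share of upregulated genes among all DE genes went from 89.7% to 53.7% for model against control, from 18.6% to 44% for silibinin against model, and from 17.1% to 36.9% for phloridzin against model. It went from 87.7% to 73.9% for silibinin against control and from 90.5% to 75.1% for phloridzin against control.

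The inducible HSP70 genes Hspa1b and Hspa1a lie side by side on chromosome 17 of GRCm38, from 34956436 to 34959238 and from 34969190 to 34972156, both on the minus strand. Hspa1b was at 1.85, 2.08 and 4.15 FPKM in the control livers, 26.5, 50.5 and 44.5 in the model livers, 4.35, 3.77 and 4.85 in the silibinin livers and 4.81, 8.02 and 2.25 in the phloridzin livers. Every model liver was above all livers of the other 3 groups, which overlapped one another. The mean was 2.7 ± 1.27 FPKM for control and 40.5 ± 12.5 for model (SD, n = 3), a ratio of 15. Hspa1a was at 0.641, 0.469 and 0.981 FPKM in the control livers, 9.88, 0.0232 and 17 in the model livers, 0.992, 1.19 and 0.934 in the silibinin livers and 0.33, 1.8 and 0.743 in the phloridzin livers. The model group held both the highest livers and the lowest liver, model 2, in which 7 fragments were recovered. Gm20481 (ENSMUST00000173680), which lies over Hspa1a on the opposite strand, was at 1.78 FPKM in model 2 and at 0 in model 1 and model 3. Since the strandedness of the libraries is not given, reads of this transcript and of Hspa1a cannot be told apart. The coding sequences of both genes are identical at 99.6% of 1923 aligned positions, and 68.1% of the windows of 100 bases in that of Hspa1b also occur in that of Hspa1a. The division of reads between the pair is therefore uncertain, and their sum averaged 3.39 ± 1.51 FPKM for control, 49.4 ± 12.6 for model, 5.36 ± 0.415 for silibinin and 5.98 ± 3.49 for phloridzin.

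**Figure D1:**
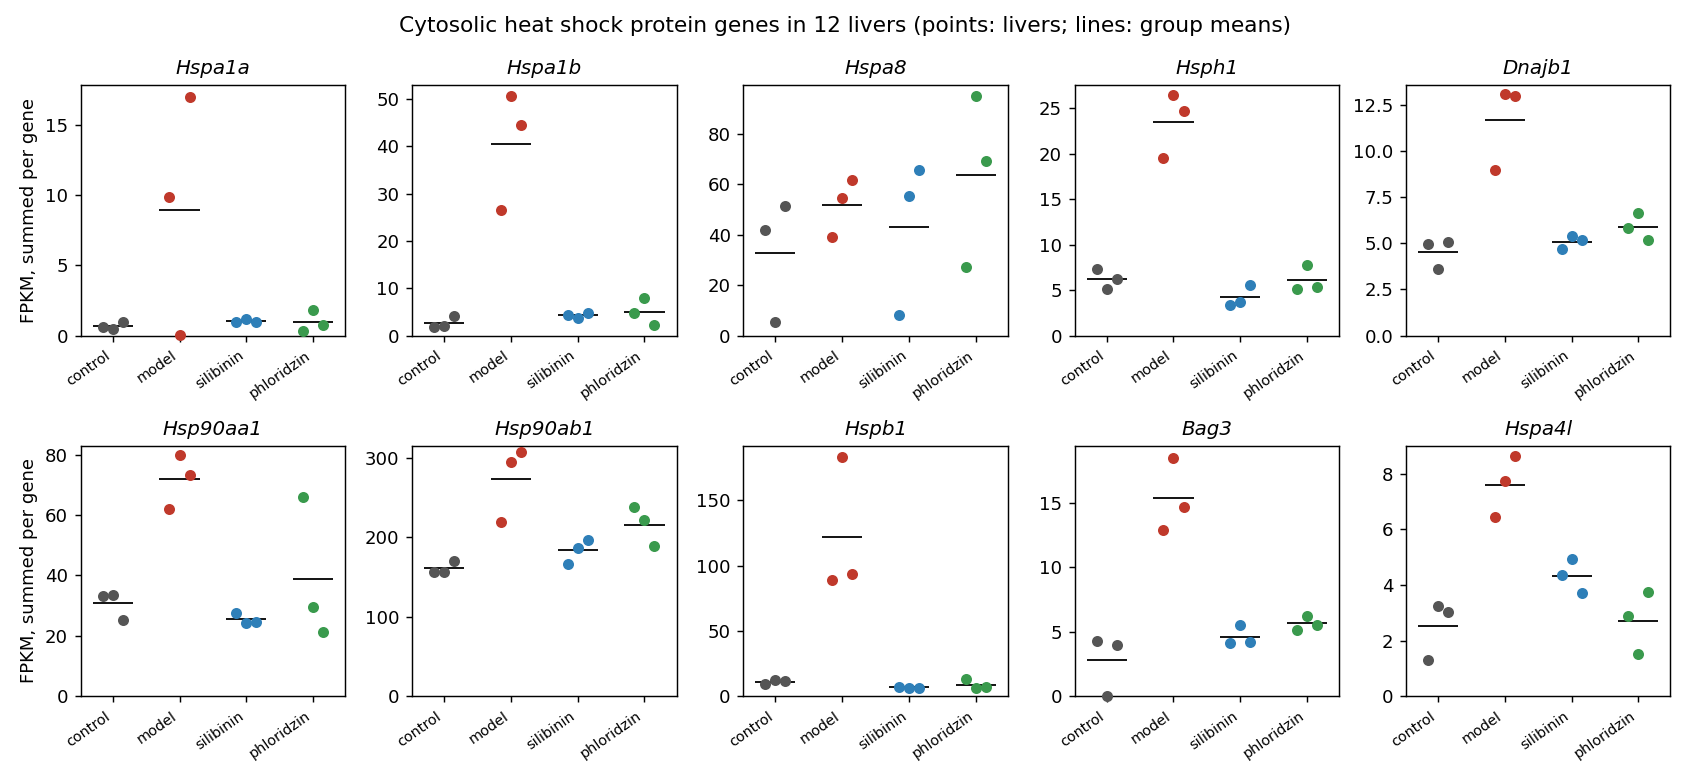
FPKM summed per gene (vertical axes, linear, starting at 0) of the 10 members in each of the 12 livers, with 1 point per liver and a line at each group mean. In 8 of the 10 panels all model points lie above all control points, which also holds for 45.1% of all genes tested. The exceptions are Hspa1a, with model 2 at 0.0232 FPKM, and Hspa8.

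Hspb1, the small heat shock protein HSP25 of the mouse, lies on chromosome 5 from 135887919 to 135889563 on the plus strand. It was at 9.28, 12.7 and 11.4 FPKM in the control livers, 88.9, 183 and 93.7 in the model livers, 7.07, 6.71 and 6.44 in the silibinin livers and 12.9, 6.43 and 7.43 in the phloridzin livers. All model livers were above all others, and the silibinin livers were all below the control livers. The mean of the model group was 11 times that of the control group, and the mean of the silibinin group was 0.0553 of that of the model group. A second coding transcript, ENSMUST00000111155, was between 3.24 and 6.41 FPKM in the model livers and at most 0.147 in the other livers.

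Bag3, a co-chaperone that links HSP70 to small heat shock proteins and autophagy, lies on chromosome 7 from 128523616 to 128546981. It was at 4.3, 0.0288 and 4 FPKM in the control livers, 12.9, 18.5 and 14.7 in the model livers, 4.1, 5.54 and 4.24 in the silibinin livers and 5.17, 6.26 and 5.54 in the phloridzin livers. The model livers were highest, and control 2 was near 0, with 8 fragments. Without control 2 the log2 difference between model and control went from 2.43 to 1.65, and it was 3.53 with a pseudocount of 0.1 and 4.25 with voom on recovered fragments.

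Promoters are shown for the 6 members in the promoter table whose model and control livers did not overlap, with and without a motif match. The sequences are those of RefSeq on GRCm38.p6, in windows that reach from upstream of the start site to just after it, and 7 of the 10 members matched the table. Capitals mark the inverted repeats of the heat shock element, GAANNTTC and TTCNNGAA, where N is any base. Each is its own reverse complement, so that both strands were searched, and matches may overlap. They lie at chr5:135887669-135887968 on the plus strand (Hspb1), chr17:34959189-34959488 on the minus strand (Hspa1b), chr5:149636287-149636586 on the minus strand (Hsph1, 1 of 2 windows) chr7:128523333-128523632 on the plus strand (Bag3), chr8:83607925-83608224 on the plus strand (Dnajb1, 1 of 2 windows) and chr3:40745363-40745662 on the plus strand (Hspa4l).
Hspb1: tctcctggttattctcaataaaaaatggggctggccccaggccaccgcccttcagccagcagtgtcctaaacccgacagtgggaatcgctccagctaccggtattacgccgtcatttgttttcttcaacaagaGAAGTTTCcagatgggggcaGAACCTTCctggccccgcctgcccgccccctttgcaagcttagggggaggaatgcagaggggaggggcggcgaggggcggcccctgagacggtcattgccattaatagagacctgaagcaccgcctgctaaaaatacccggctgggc
Hspa1b: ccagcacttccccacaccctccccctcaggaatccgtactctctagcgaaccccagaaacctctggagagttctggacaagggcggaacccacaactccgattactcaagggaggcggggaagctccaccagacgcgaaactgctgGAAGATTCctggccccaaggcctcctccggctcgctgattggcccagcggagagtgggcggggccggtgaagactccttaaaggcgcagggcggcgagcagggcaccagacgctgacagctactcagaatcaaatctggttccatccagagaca
Hsph1: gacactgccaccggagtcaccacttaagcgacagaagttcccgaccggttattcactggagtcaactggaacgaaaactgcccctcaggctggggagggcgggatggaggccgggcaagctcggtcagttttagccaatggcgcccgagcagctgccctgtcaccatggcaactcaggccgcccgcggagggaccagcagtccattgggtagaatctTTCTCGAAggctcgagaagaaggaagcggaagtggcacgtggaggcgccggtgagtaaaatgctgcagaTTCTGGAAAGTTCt
Bag3: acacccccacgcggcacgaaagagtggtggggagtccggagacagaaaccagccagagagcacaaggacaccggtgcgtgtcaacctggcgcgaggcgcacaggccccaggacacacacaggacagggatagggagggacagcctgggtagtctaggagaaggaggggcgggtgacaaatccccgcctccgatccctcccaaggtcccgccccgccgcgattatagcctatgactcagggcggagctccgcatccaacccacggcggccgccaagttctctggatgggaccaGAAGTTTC
Dnajb1: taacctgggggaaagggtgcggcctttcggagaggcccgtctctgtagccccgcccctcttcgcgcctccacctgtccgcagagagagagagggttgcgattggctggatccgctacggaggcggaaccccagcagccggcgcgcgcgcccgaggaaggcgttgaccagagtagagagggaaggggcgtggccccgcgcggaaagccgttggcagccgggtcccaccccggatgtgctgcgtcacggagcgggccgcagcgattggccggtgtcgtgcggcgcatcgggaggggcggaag
Hspa4l: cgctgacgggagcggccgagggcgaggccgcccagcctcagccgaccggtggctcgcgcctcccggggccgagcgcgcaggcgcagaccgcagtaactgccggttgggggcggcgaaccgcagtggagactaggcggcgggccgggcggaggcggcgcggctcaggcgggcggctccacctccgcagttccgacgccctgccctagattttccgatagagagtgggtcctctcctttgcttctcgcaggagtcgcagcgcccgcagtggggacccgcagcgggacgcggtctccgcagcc

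The Hspb1 promoter held 2 matches, starting at -117 and -97 with the start site counted as 0. Those of Hspa1b, Hspa1a and Bag3 held 1 each, and Hsph1 held 3, of which the overlapping pair from 36 to 48 forms a run of 3 alternating blocks of GAA and TTC. Counted from the start site of the other Hsph1 window, the same pair lies from 15 to 27. The promoters of Dnajb1 and Hspa4l held neither motif. Of the 32851 promoters in the table, 7.86% held GAANNTTC, 8.52% TTCNNGAA and 15.1% either one, and 0.603% held a run of 3 blocks. A match of letters is a description and does not show that a factor binds.

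Hsph1 encodes HSP105, a nucleotide exchange factor of the HSP110 family, on chromosome 5 from 149614287 to 149636338. Summed over 8 transcripts, it was at 7.31, 5.17 and 6.2 FPKM in the control livers, 19.5, 26.4 and 24.7 in the model livers, 3.35, 3.64 and 5.61 in the silibinin livers and 5.09, 7.81 and 5.39 in the phloridzin livers. The model livers were above all others, and the ratio of means was 3.78. The leading transcript differed between groups. ENSMUST00000074846 was listed at 14.8, 19.8 and 18.3 FPKM in the model livers, at 3.73 in phloridzin 3 and at 0 in the other 8 livers. ENSMUST00000202361 was at 5.26, 4.13 and 5.47 FPKM in the control livers, 0.531, 0.944 and 1.06 in the model livers, 1.93, 2.4 and 4.3 in the silibinin livers and 3.9, 6.52 and 0.286 in the phloridzin livers. The former held between 74.1% and 75.8% of the gene's FPKM in the model livers and 69.2% in phloridzin 3, and the latter between 57.5% and 88.2% in the livers with the former at 0. The shorter coding sequence of ENSMUST00000074846 lacks coding exon 12 of the other transcript, which is 132 bases long or 44 codons and lies from 149623465 to 149623596. As background, a short form of HSP105 made by alternative splicing is known to appear under heat stress. A listed 0 can be a failed estimate of a transcript, which was not tested.

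**Figure D2:**
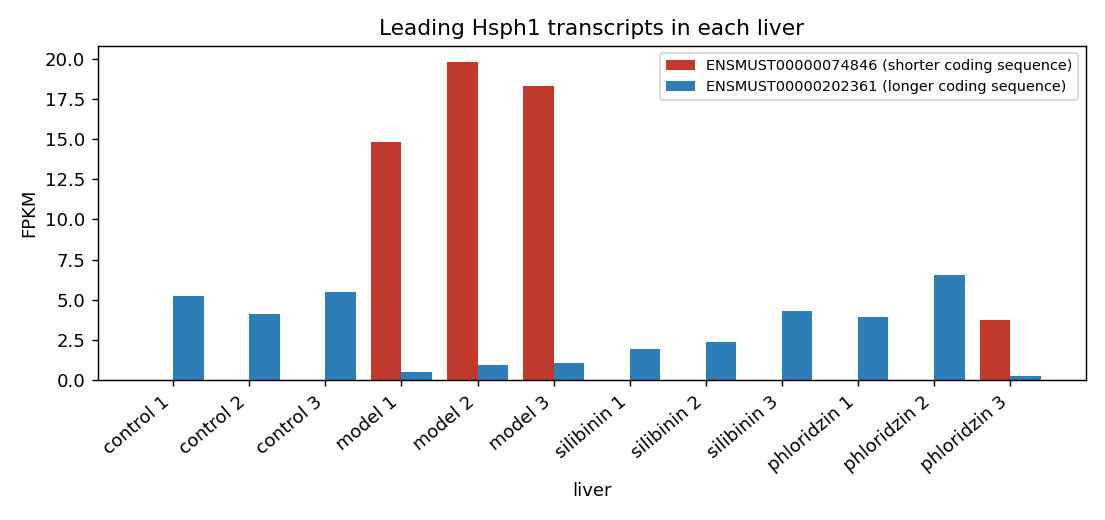
FPKM (vertical axis, linear from 0) of the 2 leading Hsph1 transcripts in each of the 12 livers (horizontal axis), with 1 bar per transcript. The transcript lacking coding exon 12 leads in all 3 model livers and in phloridzin 3, and is listed at 0 in the other 8.

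Dnajb1, the J-domain protein HSP40 that delivers clients to HSP70, was at 5.05 or less in the control livers and between 8.99 and 13.1 FPKM in the model livers, with means of 4.53 ± 0.829 and 11.7 ± 2.32 (SD, n = 3). The silibinin and phloridzin means were 5.08 ± 0.34 and 5.89 ± 0.732. Hspa4l, of the HSP110 family, averaged 2.54 ± 1.06 FPKM for control, 7.61 ± 1.11 for model, 4.33 ± 0.611 for silibinin and 2.71 ± 1.12 for phloridzin. The silibinin livers lay between the control and model livers without overlap.

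Among the HSP90 genes, the inducible Hsp90aa1 was at 33.3, 33.6 and 25.4 FPKM in the control livers, 62.1, 80 and 73.3 in the model livers, 27.6, 24.2 and 24.7 in the silibinin livers and 66.1, 29.4 and 21.3 in the phloridzin livers. Phloridzin 1 fell within the range of the model livers and the other phloridzin livers within that of the control and silibinin livers or below it. Without phloridzin 1, the log2 difference between phloridzin and model went from -1.02 to -1.48. The constitutive Hsp90ab1 had the highest mean of the members, 161 ± 8.83 FPKM for control, 274 ± 47.9 for model, 184 ± 15.2 for silibinin and 216 ± 24.6 for phloridzin. Hspa8, the constitutive HSP70, was at 41.9, 5.46 and 51.4 FPKM in the control livers, 39.1, 54.6 and 61.8 in the model livers, 8.32, 55.4 and 65.8 in the silibinin livers and 27.1, 94.9 and 69.3 in the phloridzin livers. The 4 groups overlapped, control 2 and silibinin 1 were lowest, and 75.5% of the mean came from a transcript with a retained intron, ENSMUST00000149936.

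For model against control, the difference in log2(FPKM + 1) of the members was between 0.75 (Hsp90ab1) and 3.49 (Hspa1b), or 0.41 and 3.15 relative to the median of all genes. This scale understates the change of genes with low values. On it, 7 of the 10 members were past the rule for a DE gene, a limma adjusted p under 0.05 with at least 1 log2 unit of change, and higher, against 9.42% of all genes, a direction that the selection used. All model livers were above all control livers for 8 members, against 45.1% of all genes. The members past the rule were Hspa1b, Hspb1, Bag3, Hsph1, Hspa4l, Hsp90aa1 and Dnajb1. With scaling by median ratios 4 remained past it, Hspa1b, Hspb1, Bag3 and Hsph1, where 526 of all genes were past it and higher. Hsp90ab1 then had a difference of 0.30. Without control 3 or without model 2, Hsp90aa1 was no longer past the rule, and without model 2 Hspa1a was past it. In bulk livers, fewer cells of a type and less RNA per cell cannot be told apart.

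The comparisons of silibinin and of phloridzin with the model group share the model livers. For silibinin, 5 of 10 members were past the rule and lower, against 3.25% of all genes, and 8 had no overlap with the model livers, against 27.8%. For phloridzin, 4 were past the rule and lower, against 2.92% of all genes, and 6 had no overlap, against 22.4%. When phloridzin 1 was left out, Hsp90aa1 was also past the rule, which made 5 members. Of all genes, 522 were then past it and lower, against 384 with all livers. With scaling by median ratios 4 members were past the rule in each of these comparisons, without Dnajb1 for silibinin. Of all genes, 241 were then past it and lower for silibinin and 239 for phloridzin. Single livers also decided some of these calls. For silibinin, Dnajb1 was lost without model 2, model 3 or silibinin 1, Hsp90aa1 was lost and Hspa1a gained without model 2, and Bag3 was gained without control 2. For phloridzin, Hspa4l was lost without phloridzin 2, and a gain was seen of Bag3 without control 2, of Dnajb1 without model 1 and of Hspa1a without model 2. Fitting the 2 compared groups alone also ended the call of Hspa4l for phloridzin and added Bag3 for both drugs, and taking the most abundant transcript alone ended that of Dnajb1 for silibinin. Hspb1 had log2 differences of -3.91 (standard error 0.29) for silibinin and -3.61 (0.29) for phloridzin, Hspa1b -2.92 and -2.85 (0.37 each), and Hsph1 -2.25 and -1.80 (0.21 each). Relative to the medians of all genes these were -3.76 and -3.50 for Hspb1, -2.76 and -2.74 for Hspa1b, and -2.10 and -1.69 for Hsph1. Hspa8 had -0.67 and 0.15 (0.89 each).

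**Figure D3:**
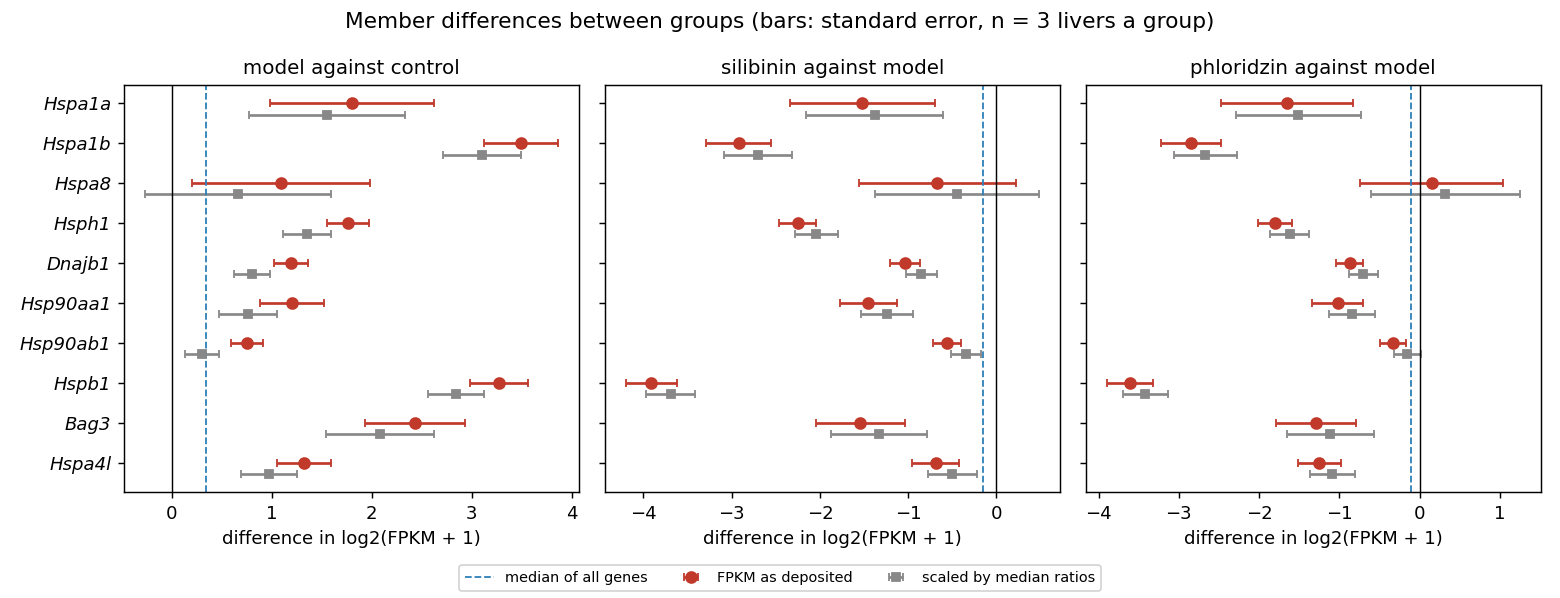
Difference in log2(FPKM + 1) of each member (horizontal axes) for model against control and for each drug group against the model group, with standard errors as bars and n = 3 livers a group. Circles are FPKM as deposited, squares FPKM scaled by median ratios, and the dashed line is the median of all genes, 0.34 in the first panel.

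No member was past the rule for phloridzin against silibinin, where 0.0228% of all genes were, for silibinin against control, where 1.98% were, or for phloridzin against control, where 3.02% were. The differences between the drug groups ran from -0.56 (Hspa4l, standard error 0.27) to 0.81 (Hspa8, 0.89). Against control, Hspb1 was at -0.64 for silibinin and -0.34 for phloridzin (0.29 each), and Bag3 at 0.89 and 1.14 (0.50 each), which went to 0.12 and 0.37 without control 2, to 1.82 and 2.12 with a pseudocount of 0.1 and to 2.51 and 2.81 with voom on recovered fragments. The medians of all genes were 0.16 and 0.18 in these comparisons, relative to which Hspb1 was at -0.80 and -0.52 and Bag3 at 0.74 and 0.96. The sign of Dnajb1 and Hsp90ab1 for silibinin against control, and of Hsp90aa1 and Hspa4l for phloridzin against control, turned with scaling by median ratios.

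The wider chaperone network was described by 9 lists with 108 genes and no member among them, of which 97 were tested. For model against control, 8 were DE and all were higher, or 8.25%, a share near the 9.42% of all genes. The median log2 fold change was 0.39 over the network and 0.34 over all genes. With scaling by median ratios 2 were DE, Serpinh1 and Zfand2a, and the network median was 0.02. No gene was DE among 4 tested HSF regulators, 5 other cytosolic HSP70 genes, 19 J-domain proteins, 9 HSP70 co-chaperones, 3 small heat shock proteins and 13 mitochondrial chaperones. Of these 53 genes, 18 had an unadjusted p under 0.05 by limma, and voom on recovered fragments called 1, Dnajb5. Hsf1 itself was at 4.41, 4.72 and 4.41 FPKM in the control livers and 7.12, 6.09 and 6.76 in the model livers, without overlap. Its fold change of 0.47 on the log2 scale (limma, adjusted p = 0.032) was below the cutoff and became 0.09 with scaling.

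The DE network genes were 4 of 12 other HSF1 targets, 3 of 18 HSP90 co-chaperones and 1 of 14 genes of the CCT chaperonin and prefoldin. Zfand2a, which encodes a zinc finger protein that associates with the proteasome, was at 5.15, 4.51 and 3.78 FPKM in the control livers, 15.5, 18.2 and 16.5 in the model livers, 4.14, 4.2 and 3.46 in the silibinin livers and 3.15, 4.13 and 4.17 in the phloridzin livers. The model livers stood above all others. Its log2 fold change was 1.70 for model against control (standard error 0.14, adjusted p = 4.2e-05), -1.85 for silibinin against model (adjusted p = 4.0e-05) and -1.89 for phloridzin against model (adjusted p = 3.4e-05, all limma). Serpinh1, the collagen chaperone HSP47, was at 2.32, 1.57 and 1.96 FPKM in the control livers, 7.05, 12.3 and 7.43 in the model livers, 8.51, 5.14 and 4.84 in the silibinin livers and 16.1, 7.8 and 6.59 in the phloridzin livers. It was above the control livers in all 3 CCl4 groups, with log2 fold changes against control of 1.72 (adjusted p = 0.0025) in the model group, 1.25 (adjusted p = 0.049) in the silibinin group and 1.83 (adjusted p = 0.0095) in the phloridzin group. The call for silibinin against control was lost with scaling (adjusted p = 0.065), and also when any 1 of the control, model or silibinin livers or phloridzin 2 was left out. For phloridzin against control it was lost with those groups alone in the fit and with the most abundant transcript alone. Against the model group it was not DE under either drug. Ier5 and Jmjd6 rose by 1.31 and 1.06 log2 units with CCl4 alone (adjusted p = 0.00013 and 0.024), as did the co-chaperones Ppid by 1.20 (adjusted p = 0.00093) and Chordc1 by 1.04 (adjusted p = 0.0038) and the CCT subunit Tcp1 by 1.27 (adjusted p = 0.0063). With scaling by median ratios none of these 5 was DE, and leaving out single livers ended the calls of Jmjd6 (control 2, control 3, model 2 or model 3) and Chordc1 (control 3).

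For silibinin against model, 4 of 97 network genes were DE and lower, Zfand2a, Tcp1, Jmjd6 and Hspb8, or 4.12% beside 3.25% of all genes. For phloridzin against model these were 3, Zfand2a, Jmjd6 and Hspb8, or 3.09% beside 2.92%. The median log2 fold changes were -0.32 and -0.22 over the network and -0.15 and -0.11 over all genes. Hspb8, a small heat shock protein that works with Bag3, was at 98.4, 71.1 and 79.4 FPKM in the control livers, 144, 146 and 106 in the model livers, 60.7, 49.2 and 60.3 in the silibinin livers and 55, 60.7 and 76 in the phloridzin livers. Model livers were highest, and the silibinin livers lay below the control livers. It fell by 1.20 with silibinin and by 1.03 with phloridzin in log2 units (limma, adjusted p = 0.0024 and 0.0056), and its 0.66 for model against control was below the cutoff. With scaling by median ratios it was not DE in either drug comparison, Jmjd6 was not DE for phloridzin, and Zfand2a was DE for both drugs. Hspb8 was also not DE for phloridzin without model 1, model 2 or phloridzin 1, and Tcp1 was DE for phloridzin without phloridzin 1. Ppid became DE for silibinin without silibinin 2, and for phloridzin without model 2, model 3 or phloridzin 1. Jmjd6 lost its call for both drugs without model 2 or model 3, for silibinin without silibinin 2 and for phloridzin without phloridzin 2. For phloridzin against silibinin, limma called 0 network genes, with 3 at an unadjusted p under 0.05 and 0 called by voom on recovered fragments.

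**Figure D4:**
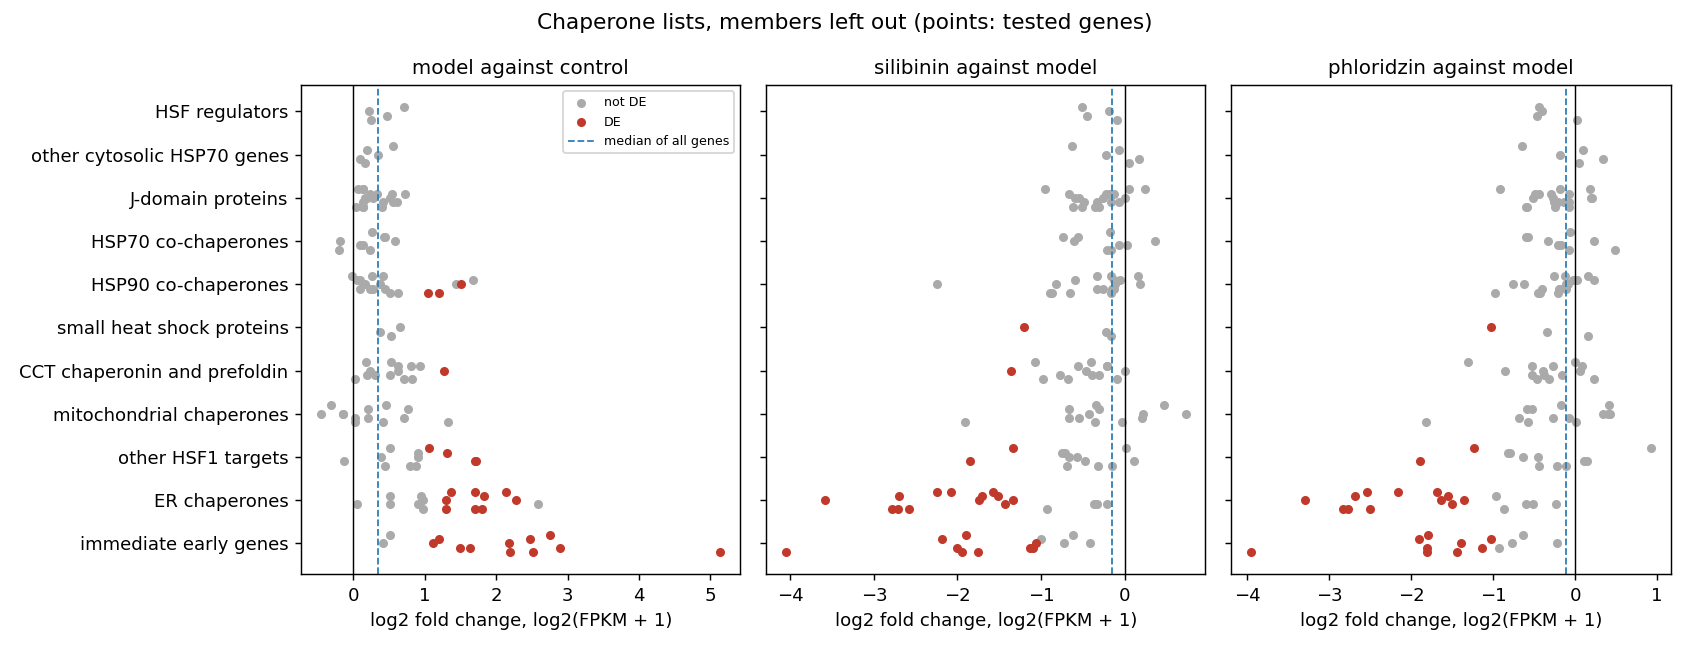
Log2 fold change of log2(FPKM + 1) (horizontal axes) of the tested genes of each chaperone list and of the immediate early list (rows), with 1 point per gene, red where DE, for model against control and each drug group against the model group. The dashed line is the median of all genes, and most network genes lie near it, while DE points fill much of the 2 bottom rows, with 9 of 17 ER chaperones and 11 of 13 immediate early genes in the first panel.

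The most abundant genes of the lists were not DE for model against control. Their log2 fold changes were those of Hsbp1 (0.25), Hspa4 (0.56), Dnaja2 (0.14), Bag6 (0.26), Ptges3 (0.16), Cct8 (0.30), Hspa9 (0.77) and Sqstm1 (0.39). Scaling by median ratios turned the sign for Hsbp1, Dnaja2, Bag6, Ptges3, Cct8 and Sqstm1. Of the others, Hspa4, an HSP110 protein, and Hspa9, the mitochondrial HSP70, had adjusted p-values of 0.004 and 0.0016 (limma) without reaching the cutoff, and after scaling their log2 fold changes were 0.13 and 0.32 (adjusted p = 0.35 and 0.11).

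Chaperones of the endoplasmic reticulum (ER) and immediate early genes were set beside the members. Of 17 ER chaperones, 9 were DE and higher for model against control, 13 were DE and lower with silibinin and 12 with phloridzin against model. The shares of all genes DE in these directions were 9.42%, 3.25% and 2.92%. After scaling, where 526, 241 and 239 of all genes were DE in these directions, the ER chaperone counts were 6, 12 and 12, with medians of 0.87, -1.51 and -1.45. Their summed FPKM was 1270 ± 197 for control, 2990 ± 309 for model, 1080 ± 80.2 for silibinin and 1030 ± 85.3 for phloridzin. Of 13 tested immediate early genes, these counts were 11, 9 and 9, and after scaling 9, 6 and 7, with medians of 1.85, -0.95 and -1.22. Jund, the most abundant of them, was at 31.6, 28 and 29.4 FPKM in the control livers, 60.2, 76.3 and 73 in the model livers, 33.1, 34.5 and 35.3 in the silibinin livers and 32.1, 33.6 and 34.7 in the phloridzin livers. On FPKM as deposited, the model livers were above all others, and the control livers were below all livers of both drug groups. The order of control and drug groups did not hold with scaling by median ratios. The log2 fold changes of Jund against control went from 0.21 to -0.02 for silibinin and from 0.17 to -0.09 for phloridzin. The part of what moves these genes in the members' levels was not tested.

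Genes outside the members were ranked by likeness to their profile over the 12 livers if their mean was at least 1 FPKM. Among these, the most alike were Mthfd2, Chpf, Impdh1, Ywhag and Iars, each with a Pearson r of 0.98 to the mean standardised level of the members. The livers of a group share their treatment, so this r mainly follows the difference between groups and is a description. Mthfd2, a mitochondrial enzyme of folate metabolism, was at 0.706, 0.221 and 0.69 FPKM in the control livers, 6.89, 7.55 and 8.61 in the model livers, 0.872, 0.866 and 1.61 in the silibinin livers and 1.69, 1.59 and 1.32 in the phloridzin livers. The model livers were above all others. Among the members, r with the same profile ran from 0.44 (Hspa8) and 0.61 (Hspa1a) to 0.99 (Dnajb1). Each member is part of this profile, which raises its r.

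Markers of liver cell types also moved between groups. The summed FPKM of 10 macrophage markers was 143, 248 and 207 in the control livers, 353, 592 and 474 in the model livers, 417, 549 and 434 in the silibinin livers and 673, 691 and 368 in the phloridzin livers. That of 10 stellate cell and fibroblast markers was 37.3, 37.5 and 45 in the control livers, 183, 152 and 179 in the model livers, 169, 166 and 82.2 in the silibinin livers and 229, 106 and 77.7 in the phloridzin livers. Both sums were above those of all control livers in every drug-treated liver, and limma called 0 of the 51 tested genes of the 6 marker lists in either drug group against the model group, with 5 at an unadjusted p under 0.05 in each and 0 called by voom. For model against control, the DE macrophage markers were Lyz2, the most abundant of the list, and Itgam, both higher. Of the stellate cell markers 5 were DE and higher, Col1a1, Col3a1 (the most abundant), Col1a2, Lrat and Tagln. With scaling by median ratios these were 4, without Tagln. The only DE gene among 4 tested cholangiocyte markers was Spp1, the most abundant, and among 7 tested lymphocyte and neutrophil markers Ptprc, both higher, while S100a8, the most abundant of the latter list, was not DE (limma, adjusted p = 0.08). Of 10 hepatocyte markers 1 was DE, Cyp2e1, which fell by 2.35 log2 units (limma, adjusted p = 0.0014), and Alb, the most abundant, was not DE. Of 10 endothelial markers, of which Clec4g was the most abundant, limma called 0, with 2 at an unadjusted p under 0.05 and 0 called by voom. Hepatocyte markers summed to 22000 ± 3290 FPKM for control, 25400 ± 6750 for model, 31100 ± 7420 for silibinin and 28400 ± 5220 for phloridzin. Alb made up most of these sums, with means of 12700, 19100, 22300 and 19500 FPKM. Endothelial markers summed to 86.1 ± 12.8, 96.4 ± 11.7, 72 ± 28.8 and 101 ± 20.6 FPKM in the same order. Cholangiocyte markers summed to 15.9 ± 3.21, 53.8 ± 4.46, 43.3 ± 14.1 and 37.6 ± 15.6 FPKM. Spp1 alone had means of 11.4, 45.9, 35.1 and 29 FPKM, so these sums mainly follow this gene. Lymphocyte and neutrophil markers summed to 21.7 ± 6.4, 62.6 ± 22.6, 32.6 ± 8.38 and 63.6 ± 27.5 FPKM. The silibinin mean was below the model mean and the phloridzin mean was not. The latter rested on phloridzin 2, at 95.1 FPKM, while phloridzin 1 and phloridzin 3, at 44.5 and 51.3 FPKM, were below the model mean. In phloridzin 2, S100a8 was at 54.8 FPKM and S100a9 at 18. No marker was under 0.1 FPKM in all 12 livers. The part of cell composition in the members' levels was not tested.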

How the data were processed

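The authors deposited FPKM for 169430 transcripts in 12 livers, 3 per group. The processing notes of the authors name bcl2fastq, FastQC 0.11.5, HISAT2 2.1.0, StringTie 1.3.3b and DESeq 1.28.0, and the build mm10. Which tool wrote the FPKM is not given in the sources used here, nor is the strandedness of the libraries, so antisense transcripts cannot be told apart. FPKM were summed over the 82136 rows with a gene symbol. The 18991 assembled rows without symbol and 68303 NONCODE rows were left out. The assembled rows held 25.5%, 29.8% and 29.8% of summed FPKM in the control livers and 19.4% to 21.3% in the livers with CCl4. Library sizes were read from low FPKM values of transcripts of at least 1500 bases. Each was chosen so that these values came near whole numbers of fragments. At least 99% of the 2771 to 3048 values read in each liver came within 0.1 of a whole number, a share that this choice raises. Higher values were not checked. Genes with a mean of at least 0.5 FPKM were fitted as log2(FPKM + 1) by limma 3.58.1 (lmFit, contrasts.fit and eBayes with trend) in one fit of 12 livers under R 4.3.3 with the data.table package (version 1.17.8). The p-values are two-sided and Benjamini-Hochberg adjusted over all 13158 genes, and a gene was DE at an adjusted p under 0.05 with a change of at least 1 log2 unit in either direction. The fit was tested on simulated data. Tables and plots used Python 3.11.15, pandas 2.3.3, numpy 2.4.6 and matplotlib 3.10.9.

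Genes named are the members, Hsf1, per network list up to 3 DE genes with the largest change in each comparison and the most abundant gene, the most abundant gene of each marker list and of the immediate early list, and the 5 genes most like the members. DE genes of the marker lists outside this rule, Dnajb5 and Gm20481 were named after their values were seen. Members and lists were chosen with earlier results of these data known. Alternatives covered the pseudocount, filters, scaling, groups in the fit, replicate block, choice of transcripts, fold cutoff, variance trend, summed paralogs and each liver left out. Analysis by voom on recovered fragments and the member count without phloridzin 1 were chosen after seeing the data. The silibinin dose in the study's methods was 27.3 mg/kg.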

Additional observations from a re-analysis of the deposited data

Results flagged for a closer look

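A transcript without a gene symbol, NONMMUT029382.2, lies on the strand opposite to Hspa1b and entered none of the comparisons. It is given here because its level was above that of the control livers in all 3 model livers. It had a mean of 8.15 ± 3.47 FPKM in the model group, 0.71 ± 0.315 in the control group, 0.818 ± 0.228 in the silibinin group and 1.14 ± 0.547 in the phloridzin group (SD, n = 3). Whether the libraries keep the strand is not given in the sources used here, so these reads and those of Hspa1b cannot be told apart.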

How the results depend on the processing

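For the chaperone network, the count of DE genes for model against control was 8, and became 2 with scaling by median ratios, 5 with the most abundant transcript of each gene and 32 with no fold change cutoff. For silibinin against model it was 4, and became 8 with voom on recovered fragments and 16 with no cutoff. For phloridzin against model it was 3, and became 5 with a pseudocount of 0.1, 1 with scaling, 5 with voom and 12 with no cutoff. For silibinin against control it was 1, and became 0 with a filter at 1 FPKM, with no filter, with scaling, with the replicate block, with the most abundant transcript and with protein-coding transcripts alone, and 2 with no cutoff. For phloridzin against control it was 1, and became 2 with a pseudocount of 0.1, and 0 with the fit of the 2 groups alone and with the most abundant transcript. For phloridzin against silibinin, limma gave 0 under every alternative run, with 3 network genes at an unadjusted p under 0.05 and 0 by voom. When single livers were left out, the counts were 6 to 10, 3 to 5, 2 to 4, 0 to 0 (phloridzin against silibinin), 0 to 1 (silibinin against control) and 1 to 2 (phloridzin against control). The causes were not tested.

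Livers of different groups with the same number in the sample titles had correlations of their deviations from the group means between -0.09 and 0.10. For other numbers these were between -0.17 and 0.15, so no pairing by title number was seen. The columns of the deposited data carry other numbers, by which pairing was not tested. With the replicate block, the network counts were 8, 4, 3, 0, 0 and 1 in that same order.

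Of 1380 values of the members under alternatives, 1344 stayed within 1 SD and 36 moved further, and none that was past the rule changed sign. Hsph1 for model against control went from 1.76 to 4.21 with its most abundant transcript alone, and Hspa1a from 1.80 to 3.54 summed with Hspa1b and to 3.05 without model 2. Of 4140 values of the other named genes, 82 lost and 26 gained a call. Ywhag turned from 1.40 to -0.50 for model against control and from -1.19 to 0.62 for silibinin against model with its most abundant transcript alone (limma, adjusted p = 0.84 and 0.85). Over all genes, voom changed the count of DE genes from 1382 to 2538 for model against control and from 526 to 797 for silibinin against model, and a pseudocount of 0.1 changed the first to 2596 and that for phloridzin against model from 463 to 702. Against control, the pseudocount changed 261 to 828 for silibinin and 398 to 1103 for phloridzin, voom to 684 and 937, and the most abundant transcript to 117 and 190. Scaling by median ratios gave 249 and the fit of the 2 groups alone 143 for phloridzin. With no cutoff the counts were 4594, 1849, 1691, 3, 661 and 1051. The 3 genes for phloridzin against silibinin became 5 with the most abundant transcript and 0 by limma with the 2 groups alone, where 494 had an unadjusted p under 0.05 in the fit of all livers and voom called 3. Leaving out single livers gave 1 to 6 for that comparison, 101 to 400 for silibinin and 214 to 635 for phloridzin against control.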
